A study of Mus musculus with 12 samples.

Results

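Hepatic stellate cell activation and matrix remodelling were followed through 10 genes, Acta2, Des, Pdgfrb, Lrat, Timp1, Tgfb1, Lox, Loxl2, Lum and Dpt, in mouse livers sequenced as bulk RNA. The genes were taken by name from the 2 deposited tables of read counts, one for chow-fed and one for diet-fed mice, which list 20775 and 22709 genes and share 20093. All 10 were present in both tables.

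The 12 libraries came from livers of male C57BL/6N mice, 3 in each of 4 groups. Every mouse, the WT mice included, was labelled HuR flox/flox, carrying a floxed Elavl1, the gene that encodes the RNA-binding protein HuR. Mice of 4 to 6 months had received the AAV8 virus Tbg-Cre, labelled HuRHep-/-, or Tbg-null, labelled WT, with the Tbg promoter directing Cre to hepatocytes. They ate chow, or a diet high in fat (40 kcal%), cholesterol (2%) and fructose (20 kcal%), called HFCF, for 16 weeks. The labels give no duration for chow, so the diet cannot be told apart from time on it. Each diet has its own table, so the diet also cannot be told apart from any difference in processing between the tables. The study's methods instead describe a cross with albumin-Cre mice. Stellate cells carry no intended deletion under either promoter.

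Hepatic stellate cells are the vitamin A-storing pericytes of the liver sinusoid. During chronic injury they lose retinoid droplets, acquire a contractile cytoskeleton, respond to platelet-derived growth factor (PDGF) and transforming growth factor beta (TGF-beta), and become the main source of fibrillar collagen. The matrix they lay down is then crosslinked by lysyl oxidases, decorated by small proteoglycans and protected from proteases by tissue inhibitors of metalloproteinases. Because a bulk library mixes all cells of the liver, fewer cells of a type and less RNA per cell cannot be told apart in any value given here.

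Total counts per library ran from 30071731 to 35949203. Elavl1 was higher, not lower, in the livers labelled HuRHep-/-, at 40.2 ± 2.19 CPM (counts scaled to a common library size; SD, n = 3) against 30.4 ± 0.947 in WT on chow, and at 32.9 ± 1.12 against 25.0 ± 1.72 on HFCF. A count over the gene as a whole cannot isolate its floxed exons. The check of the targeted gene thus goes against the labels, and every genotype direction given here follows the labels. The library labelled HFCF WT 2 was the lowest of its group for 10 of the 10 genes, and HFCF WT 3 was the highest for 6. In the groups labelled HuRHep-/-, chow replicate 3 was the lowest for 7 genes and HFCF replicate 1 the highest for 7. Labels do not state separate animals for the replicates of a group in words, so that p-values measure the spread between these samples.

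On the HFCF diet, Acta2 was 2.42-fold higher in livers labelled HuRHep-/- than in WT livers, and it was the 1 gene of the 10 that passed the test (adjusted p = 0.0375; limma on log2 CPM with Benjamini-Hochberg adjustment over all genes, threshold 0.05). Of the 14295 genes tested, 6.84% passed. The other 9 did not pass, with adjusted p between 0.0712 and 0.820. With 1 library left out, 0 to 6 of the 10 passed, and Acta2 passed in 2 of the 6 fits. With replicate number added to the fit as a block, 7 of the 10 passed. The 3 HuRHep-/- livers lay above the 3 WT livers for 8 of the 10 genes, Acta2 among them and Lrat and Timp1 not, where 17.6% of all genes tested were separated in that direction. Lox, one of the 8, and Timp1 reached the count filter in 2 of the 3 WT livers and in all HuRHep-/- livers, so that they were tested only with help from the group in which they were high. The median log2 fold change over the 10 genes was 1.02, beside a median of 0.00 (-0.00113) over all genes tested.

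In chow-fed livers none of the 8 genes that could be tested passed, and 4.21% of the 13526 genes tested did. Timp1 and Lox were below the count filter of 10 counts in at least 3 libraries. Log2 fold changes ran from -0.33 for Lrat to 0.38 for Lum with a median of 0.07, and no gene separated the groups, where 29.5% of all genes tested did so in either direction. At an unadjusted p under 0.05 the count was also 0, beside 23.5% of all genes tested.

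The HFCF diet was compared with chow within each genotype over the 14535 genes tested in both tables. Lrat, Timp1 and Loxl2 rose in WT livers, 3 of the 10, where 11.3% of all genes tested passed as higher. All 10 genes rose in livers labelled HuRHep-/-, where 19.7% of all genes tested passed as higher, with log2 fold changes from 0.99 for Lrat to 3.91 for Timp1 and adjusted p between 0.000932 and 0.0302. Timp1 and Lox entered these tests only through the HFCF libraries, in which they were high, and the counts over 10 genes should be read with that in mind. The comparison of genotypes on HFCF and the comparison of diets in HuRHep-/- livers share the same 3 HFCF HuRHep-/- libraries.

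**Figure D1:**
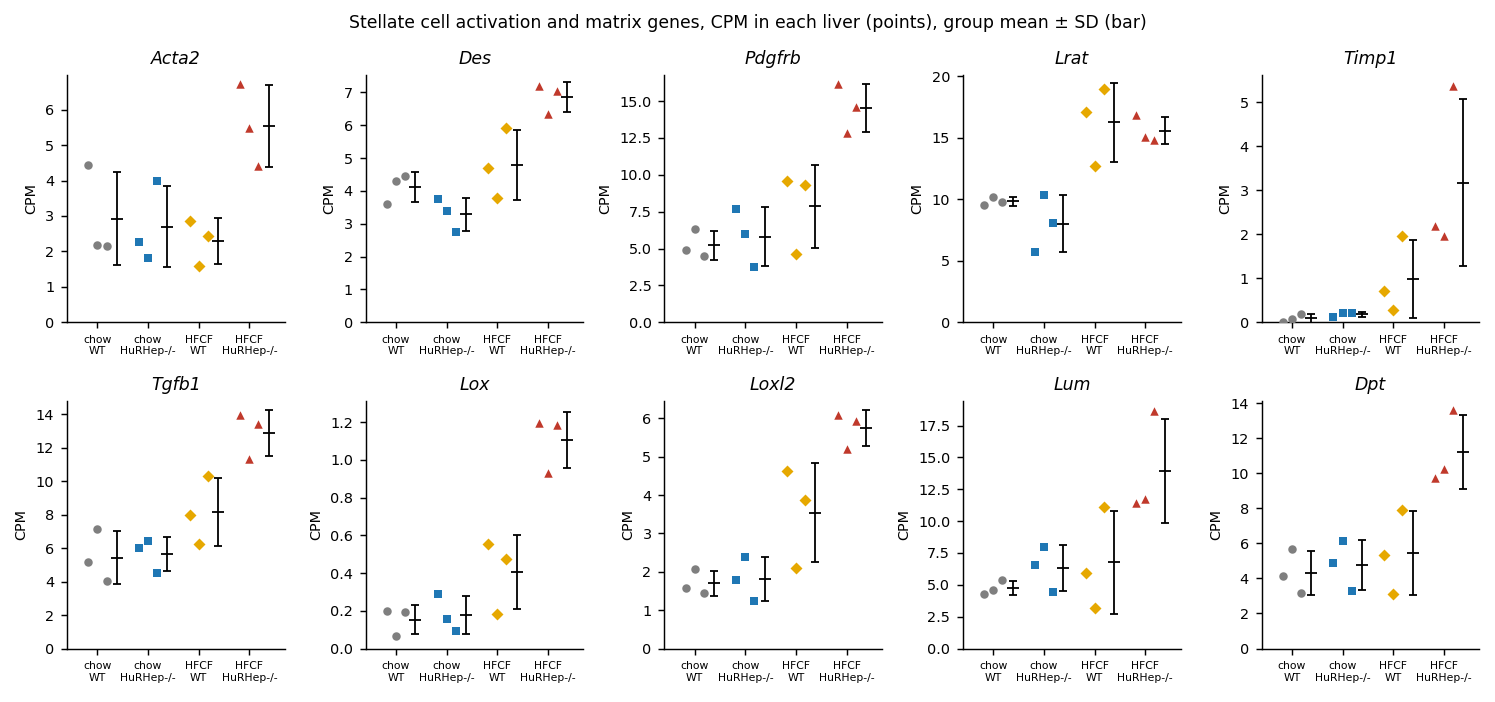
CPM of each of the 10 genes in each of the 12 livers (points, 3 per group on the x axis) with the group mean and SD (bars), each panel on its own linear axis from 0. The HFCF HuRHep-/- livers lie above the HFCF WT livers for 8 genes, overlap them for Lrat, and all but touch them for Timp1, where the highest WT and the lowest HuRHep-/- liver are both at 1.97 CPM.

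In GRCm38 coordinates of the GENCODE M21 annotation, the 10 genes lie on 8 chromosomes. Acta2 spans chr19:34241090-34255590 on the minus strand, Des chr1:75360329-75368579 and Dpt chr1:164796644-164824266 on the plus strand, and Pdgfrb chr18:61045150-61085061 on the plus strand. Lox spans chr18:52516067-52529867 on the minus strand, Lrat chr3:82892579-82903973 on the minus strand and Loxl2 chr14:69609068-69695834 on the plus strand. Tgfb1 is at chr7:25687002-25705077, Lum at chr10:97565128-97572703 and Timp1 at chrX:20870166-20874735, each on the plus strand. Per length, as RPKM, which divides CPM by the length of the exons in kilobases, the mean over the 12 livers was highest for Dpt at 3.73 and Lum at 3.24, followed by Lrat at 2.32, Tgfb1 at 1.59, Acta2 and Pdgfrb each at 1.53, Des at 1.27, Timp1 at 1.25 and Loxl2 at 0.591. Lox was lowest at 0.0964 RPKM, and in chow-fed livers it rested on 2 to 10 counts per library.

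Tgfb1 encodes the TGF-beta ligand best known for driving collagen synthesis in stellate cells, and is made by macrophages and other liver cells too. Its level was 5.17, 7.12 and 4.02 CPM in the chow WT livers and 6.00, 6.41 and 4.49 CPM in the chow HuRHep-/- livers. On HFCF, WT livers held 8.0, 6.23 and 10.3 CPM and HuRHep-/- livers 13.97, 11.4 and 13.4 CPM. The last group stood above every other liver of the study. Relative to WT on the same diet the fold was 1.59 (95% interval 1.18 to 2.14), which did not pass (adjusted p = 0.0712). With the diet, Tgfb1 rose 2.31-fold in HuRHep-/- livers (adjusted p = 0.00206), beside a fold of 1.51 in WT livers that did not pass (adjusted p = 0.0740).

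Pdgfrb encodes the beta receptor for PDGF, the mitogen of activated stellate cells, and is carried by stellate cells and other mural cells. Chow WT livers held 4.87, 6.32 and 4.48 CPM, and chow HuRHep-/- livers 7.71, 5.98 and 3.72 CPM, an overlapping spread. HFCF WT livers were split, at 9.61, 4.64 and 9.34 CPM, so that the library labelled HFCF WT 2 fell within the chow range. HFCF HuRHep-/- livers held 16.2, 12.9 and 14.6 CPM, each above the highest WT liver. Between genotypes on HFCF the fold was 1.91 (95% interval 1.22 to 3.00) with an adjusted p of 0.0810. It passed without HFCF WT 2, at a lower log2 fold change of 0.59 against 0.94 (adjusted p = 0.0429). The diet raised Pdgfrb 2.60-fold in HuRHep-/- livers (adjusted p = 0.00434), and the WT fold of 1.44 did not pass (adjusted p = 0.213).

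Lrat, lecithin retinol acyltransferase, esterifies retinol for storage and marks the retinoid-storing stellate cell. It was measured at 9.51, 10.2 and 9.78 CPM in chow WT, 5.71, 10.3 and 8.06 CPM in chow HuRHep-/-, 17.1, 12.7 and 19.0 CPM in HFCF WT and 16.9, 15.04 and 14.8 CPM in HFCF HuRHep-/- livers. Both HFCF groups lay above both chow groups without overlap. The diet raised Lrat in each genotype, 1.63-fold in WT (adjusted p = 0.0204) and 1.99-fold in HuRHep-/- livers (adjusted p = 0.00232). The WT call was lost without chow WT 1 or 3 or HFCF WT 1 or 3 (adjusted p from 0.0559 to 0.0792). Between genotypes on HFCF the fold was 0.959 with a 95% interval of 0.752 to 1.22, and its log2 value of -0.06 was the 1 negative value among the 10 genes. That sign turned to 0.09 when libraries were scaled by their totals alone.

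HuR binds AU-rich and U-rich stretches of 3′ untranslated regions, and Lrat has the longest such region of the 10 genes, at 4394 bases. It holds 13 ATTTA pentamers, more than any other of the 10, and 2 TATTTAT heptamers, the core of the classical AU-rich element. Both are printed with the heptamer in capitals, from the GENCODE M21 transcript on the minus strand of GRCm38. The first begins 51 bases into the 3′ untranslated region and lies at chr3:82896904-82896933, the second 643 bases in and at chr3:82896312-82896341.
Lrat site 1: aaatgtgtttaTATTTATagagcacaaaac
Lrat site 2: cagacagtagcTATTTATatttacttttga

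Des encodes desmin, the intermediate filament that marks stellate cells in rodent liver and also vascular smooth muscle. It ran at 3.59, 4.31 and 4.45 CPM in chow WT and at 3.74, 3.38 and 2.74 CPM in chow HuRHep-/- livers, which held the 2 lowest values of the study. HFCF WT livers held 4.70, 3.79 and 5.91 CPM and HFCF HuRHep-/- livers 7.21, 6.35 and 7.03 CPM. The genotype fold on HFCF was 1.43 (95% interval 1.09 to 1.89, adjusted p = 0.0999), and the same contrast on chow gave 0.799 (0.612 to 1.04, adjusted p = 0.283). With the diet Des rose 2.10-fold in HuRHep-/- livers, where its adjusted p of 0.000932 was the smallest of the 10 genes, while the fold of 1.15 in WT livers did not pass (adjusted p = 0.413).

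Acta2 encodes alpha smooth muscle actin, the contractile actin used to recognise the activated, myofibroblastic stellate cell and present also in vascular smooth muscle. Chow WT livers held 4.44, 2.17 and 2.16 CPM and chow HuRHep-/- livers 2.26, 1.83 and 4.00 CPM, so that 1 liver of each group stood well above its neighbours. In HFCF WT livers Acta2 was at 2.85, 1.59 and 2.45 CPM, inside the chow range apart from 1.59. The HFCF HuRHep-/- livers held 6.73, 5.50 and 4.42 CPM, all above the HFCF WT livers, and the lowest of them was just under the highest chow WT liver. The genotype fold on HFCF was 2.42 (95% interval 1.596 to 3.66). Acta2 no longer passed when HFCF WT 1 or any 1 of the 3 HFCF HuRHep-/- livers was left out (adjusted p from 0.0687 to 0.142, log2 fold change from 1.13 to 1.46). Across diets it was 2.14-fold higher on HFCF in HuRHep-/- livers (adjusted p = 0.0272), a call that was lost without chow HuRHep-/- 1 or 2 or without HFCF HuRHep-/- 1 or 2 (adjusted p from 0.0649 to 0.1005). In WT livers the fold was 0.811 and did not pass (adjusted p = 0.559).

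Because Acta2 is known to be driven by serum response factor through CArG boxes upstream of its start, the promoter was searched for them on both strands. RefSeq (GRCm38.p6) gave a promoter of 250 bases before to 50 after the start for 6 of the 10 genes, Acta2, Des, Dpt, Lrat, Tgfb1 and Timp1. None of the 6 held an exact CArG box, which 1.63% of 32851 promoters did. With 1 other letter allowed inside the box, a search added after the first result, Acta2 had 2 and Lrat 1, and 8.50% of promoters had at least 1. The Acta2 decamers begin at positions -84 and -34 from the RefSeq start, and are shown in capitals with 10 bases on each side, on the minus strand at chr19:34255438-34255467 and chr19:34255388-34255417. GENCODE M21 starts the gene further upstream and places both within its first, non-coding exon.
Acta2 distal decamer: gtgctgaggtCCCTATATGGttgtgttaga
Acta2 proximal decamer: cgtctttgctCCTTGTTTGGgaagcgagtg

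The SMAD-binding motif CAGAC was in the promoters of Acta2 and Des and in 49.6% of all promoters. The AP-1 motif TGANTCA was in none of the 6 and in 7.81% of all. A match of letters is not evidence of binding, and a window without one says nothing about the factor.

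Among the crosslinking enzymes, Lox encodes lysyl oxidase, which oxidises lysines of collagen and elastin so that fibres can crosslink. Raw counts were 6, 2 and 6 in chow WT, 10, 5 and 3 in chow HuRHep-/-, 21, 6 and 15 in HFCF WT and 48, 36 and 44 in HFCF HuRHep-/- livers. These correspond to 0.198, 0.0669 and 0.196 CPM, to 0.290, 0.155 and 0.0923 CPM, to 0.554, 0.183 and 0.477 CPM and to 1.197, 0.933 and 1.19 CPM. The HFCF HuRHep-/- livers were thus well apart from the rest, at the lowest depth of any of the 10 genes. The genotype fold on HFCF of 2.90 (95% interval 1.43 to 5.84) had an adjusted p of 0.0741. With the diet Lox rose 6.29-fold in HuRHep-/- livers (95% interval 2.78 to 14.3, adjusted p = 0.00322), beside 2.47-fold in WT livers, which did not pass (adjusted p = 0.0983).

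Loxl2, a lysyl oxidase of the same family that also acts on basement membrane collagen, had a mean of 0.591 RPKM over the 12 livers against 0.0964 RPKM for Lox. Levels were 1.58, 2.07 and 1.44 CPM in chow WT, 1.80, 2.38 and 1.23 CPM in chow HuRHep-/-, 4.62, 2.11 and 3.88 CPM in HFCF WT and 6.09, 5.21 and 5.93 CPM in HFCF HuRHep-/- livers. The lowest HFCF WT liver was just above the highest chow WT liver. Loxl2 rose with the diet in both genotypes, 1.99-fold in WT (adjusted p = 0.0303) and 3.27-fold in HuRHep-/- livers (adjusted p = 0.00137). Its WT call was lost without the same 4 libraries as that of Lrat (adjusted p from 0.0886 to 0.113) and in a fit of the 6 WT libraries alone (0.0664). The genotype fold on HFCF was 1.69 (95% interval 1.07 to 2.66) and did not pass (adjusted p = 0.129), although the groups did not overlap.

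Loxl2 carries 3 ATTTA pentamers and 1 TATTTAT heptamer in a 3′ untranslated region of 2715 bases. The heptamer begins at base 2024 of that region, and its surroundings lie on the plus strand at chr14:69695132-69695161.
Loxl2 site: ttcattttgcaTATTTATatacaattatag

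Timp1, tissue inhibitor of metalloproteinases 1, blocks the proteases that degrade matrix and is a standard transcript of fibrotic liver. Raw counts were 0, 2 and 6 in chow WT and 4, 7 and 7 in chow HuRHep-/- livers, and rose to 27, 9 and 62 in HFCF WT and 88, 76 and 199 in HFCF HuRHep-/- livers. In CPM these are 0, 0.0669 and 0.196, then 0.116, 0.217 and 0.215, then 0.713, 0.275 and 1.97, and finally 2.19, 1.97 and 5.36. The count of 0 in chow WT 1 allows up to 3 counts, or 0.0988 CPM, by counting error alone. Each HFCF liver was above each chow liver. The diet fold was 15.02 in HuRHep-/- livers (95% interval 3.85 to 58.6, adjusted p = 0.00604) and 11.8 in WT livers (3.03 to 46.1, adjusted p = 0.0153). The WT fold was set against 8 counts in all and moves with the pseudocount of 0.5. It did not pass with voom weights (adjusted p = 0.0762), nor without chow WT 1 or HFCF WT 3 (adjusted p = 0.0504 and 0.0637), and the log2 value of 3.56 ran from 2.51 without chow WT 1 to 4.44 without chow WT 3. Between genotypes on HFCF the fold was 3.80 (95% interval 1.21 to 11.9, adjusted p = 0.125), and the HFCF WT 3 liver reached the lowest HuRHep-/- liver. Its log2 value of 1.93 fell to 1.24 without HFCF WT 2, and was 2.64 without HFCF WT 3, where it passed (adjusted p = 0.0424).

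Lum encodes lumican, a small leucine-rich keratan sulfate proteoglycan that binds collagen fibrils and governs their spacing. It was at 4.28, 4.62 and 5.36 CPM in chow WT and at 6.55, 7.96 and 4.40 CPM in chow HuRHep-/- livers, where the genotype fold of 1.30 did not pass (adjusted p = 0.338). HFCF WT livers spread widely, at 5.97, 3.21 and 11.1 CPM, and HFCF HuRHep-/- livers held 11.4, 11.7 and 18.6 CPM. The lowest HuRHep-/- liver was just above the highest WT liver. On HFCF the genotype fold was 2.24 (95% interval 1.12 to 4.49, adjusted p = 0.125) and passed without HFCF WT 3 (log2 fold change 1.62, adjusted p = 0.0386). Lum rose 2.21-fold with the diet in HuRHep-/- livers (adjusted p = 0.0302), a call lost without chow HuRHep-/- 1 or 3 or HFCF HuRHep-/- 3 (adjusted p from 0.0555 to 0.113). The WT fold was 1.26 (adjusted p = 0.544).

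Dpt encodes dermatopontin, a small matrix protein that binds decorin and promotes collagen fibril assembly. Levels were 4.15, 5.65 and 3.17 CPM in chow WT, 4.90, 6.13 and 3.26 CPM in chow HuRHep-/-, 5.33, 3.11 and 7.91 CPM in HFCF WT and 9.70, 10.3 and 13.6 CPM in HFCF HuRHep-/- livers. The first 3 groups shared 1 range, and the last stood above it. For HuRHep-/- over WT on HFCF the fold was 2.15 (95% interval 1.28 to 3.62, adjusted p = 0.0791). The diet raised Dpt 2.40-fold in HuRHep-/- livers (adjusted p = 0.0115), and the fold of 1.21 in WT livers did not pass (adjusted p = 0.580). An exact two-sided permutation test of 3 against 3 livers cannot go below 0.1, the value reached by 9 of the 10 genes for genotype on HFCF, Lrat being the exception at 0.9. That value means that the groups did not overlap, which held in either direction for 36.8% of all genes tested. Timp1 is among the 9 because the closest livers of its groups, equal at 1.97 CPM, were just apart under the scaling over all 12 libraries used there, and not under that over the 6 HFCF libraries.

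**Figure D2:**
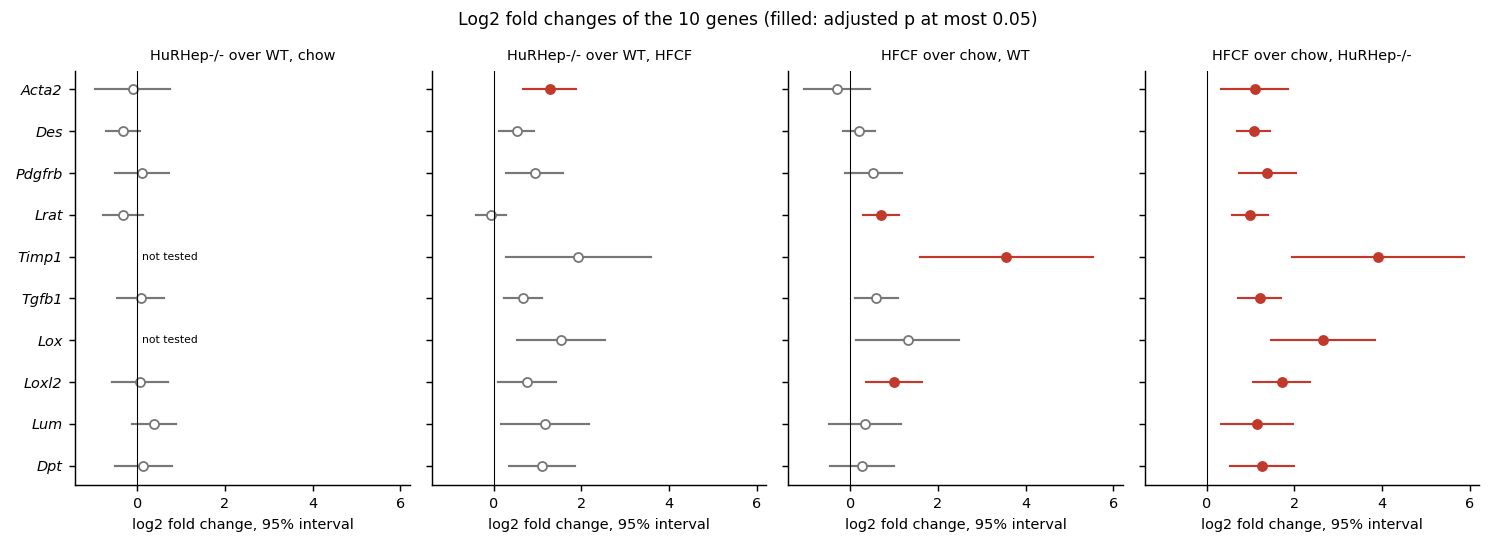
Log2 fold changes (x axis) of the 10 genes with 95% intervals in 4 comparisons, filled and red where the adjusted p was at most 0.05. On HFCF 9 of the 10 values lie to the right of 0 and 1 (Acta2) is filled, and in the comparison of diets in HuRHep-/- livers all 10 are filled.

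A term for genotype by diet, fitted over the 12 libraries, tested whether the genotype difference itself changed with the diet. All 10 estimates were positive, with log2 values from 0.29 for Lrat to 1.40 for Acta2 and a median of 0.83, and none passed. Timp1 and Lox entered this fit only through the HFCF libraries, in which they were high. The smallest adjusted p values were 0.187 for Des (log2 0.87, 95% interval 0.34 to 1.40) and 0.251 for Acta2 (1.40, 0.32 to 2.48). These were also the 2 genes at an unadjusted p under 0.05. Over all 14535 genes the limma count was 0 (percent passing 0), with 2083 at an unadjusted p under 0.05, and voom weights gave 1 gene. A call in HuRHep-/- livers and none in WT livers therefore does not show that the diet effects differ.

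Averaged over both diets, genotype gave higher values for 9 of the 10 genes with a median log2 fold change of 0.56, and none passed (adjusted p from 0.0595 for Lum to 0.577 for Des), where 19.2% of all genes did. At an unadjusted p under 0.05 the count was 7, beside 34.8% of all genes tested. In an exact permutation test that reassigned genotype within each diet (400 splits, two-sided), p was 0.02 for Timp1, 0.03 for Lum and 0.065 for Dpt, without adjustment for the 10 genes, and between 0.075 and 0.595 for the other 7. Timp1 and Lox, both among the 7, were below the count filter on chow and entered through the HFCF libraries, in which they were high.

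The genes around the 10 were read from 8 lists, whose calls between genotypes on HFCF stand beside 2.9% of all genes tested that passed as higher. Their rises with the diet stand beside 11.3% of all genes tested in WT and 19.7% in HuRHep-/- livers, and several list counts in WT are near that share. Of 18 other stellate cell markers, 2 were higher in HuRHep-/- than in WT livers on HFCF, among them Cygb, the stellate cell globin (log2 fold change of 0.88, adjusted p = 0.0498), and 16 did not pass. The median of the list was 0.30. With the diet, 6 of the 18 rose in WT livers and 16 in HuRHep-/- livers, none falling, and Gfap, one of the 16, entered only through the HFCF libraries. Ngfr, the p75 neurotrophin receptor of stellate cells, rose in both (log2 fold changes of 1.19 and 2.04), as did Rgs5, a regulator of G-protein signalling in pericytes (1.19 and 0.95), and Nes, nestin, rose by 1.85 in HuRHep-/- livers. On chow none of the 17 tested passed between genotypes.

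Of the contractile and smooth muscle genes, 4 of 15 tested were higher in HuRHep-/- livers on HFCF. Flna, the actin crosslinker filamin A, and Tagln, the smooth muscle protein transgelin, had log2 fold changes of 0.79 and 0.76 (adjusted p = 0.0467 and 0.0383), and the other 2 were Actn1 and Tpm1. The diet raised 4 of 17 in WT and 8 of 17 in HuRHep-/- livers, led in WT by Tpm2 (1.78), a muscle tropomyosin, and Synpo2 (0.87). Tpm2 rose by 1.53 and Flna by 1.47 in HuRHep-/- livers. Tpm1 was the 1 gene of this list that passed between genotypes on chow (0.59, adjusted p = 0.0148), and the list had 0 calls without chow WT 1 or 3 or chow HuRHep-/- 1 or 2.

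The PDGF list held 4 ligands and the receptor Pdgfra. On HFCF the ligand Pdgfa was higher in HuRHep-/- livers (0.43, adjusted p = 0.0334), while Pdgfb at 0.98 and Pdgfd at 0.84 did not pass (adjusted p = 0.0523 and 0.0572). None of the 5 passed with the diet in WT livers, and 3 rose in HuRHep-/- livers, Pdgfa, Pdgfb (1.96) and Pdgfra (1.198).

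Among 24 tested genes of the TGF-beta pathway, 3 were higher in HuRHep-/- livers on HFCF. They were Ltbp2, a latent TGF-beta binding protein family member of elastic fibres (1.71, adjusted p = 0.0309), the ligand Tgfb3 (1.15, adjusted p = 0.0367) and Ltbp3. With the diet 4 rose and 2 fell in WT livers, and 14 rose and 2 fell in HuRHep-/- livers. Thbs1, thrombospondin 1, which can release the latent ligand, rose in both genotypes (1.504 in WT, 2.28 in HuRHep-/- livers). The signal transducers Smad2 and Smad4 were the 2 that fell in each. Smad3 was higher in HuRHep-/- livers on chow (0.57, adjusted p = 0.0414), a call lost without any 1 of the 6 chow libraries.

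Collagen crosslinking and processing genes included 2 of 19 that were higher in HuRHep-/- livers on HFCF, the lysyl oxidase Loxl1 (1.16, adjusted p = 0.0324) and Tgm2, tissue transglutaminase (0.72, adjusted p = 0.0189). The diet raised 4 and lowered 1 in WT livers, with Tgm2 (0.87) and Plod1 (0.54), a lysyl hydroxylase, foremost. It raised 11 and lowered 2 in HuRHep-/- livers, led by Serpinh1, the collagen chaperone HSP47 (2.12), and Plod2, the telopeptide lysyl hydroxylase (1.99).

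Matrix proteases and their inhibitors showed no call between genotypes on HFCF, 0 of 17 with a median log2 fold change of 0.77. With the diet 4 rose in WT livers, and 10 rose and 1 fell in HuRHep-/- livers. Mmp12, the macrophage metalloelastase, had the largest change in each (4.16 and 5.29), followed by the collagenase Mmp13 (3.49 and 5.25). Like Timp1 and Lox, both entered these tests only through the HFCF libraries, in which they were high, and the order rests on that filter. Timp2 and Timp3, inhibitors related to Timp1, rose in HuRHep-/- livers (1.27 and 0.92) and did not pass in WT livers (0.52 and 0.24).

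Of the proteoglycans and matrix glycoproteins, the class of Lum and Dpt, 6 of 25 were higher and 1 lower in HuRHep-/- livers on HFCF. Vcan, the large proteoglycan versican, and Mfap4, an elastic fibre protein, had the largest log2 fold changes (2.34 and 1.91, adjusted p = 0.0235 and 0.0467), followed by Eln, elastin (1.82). Vcan reached the count filter in 0 of the 3 WT livers and in all HuRHep-/- livers. Omd, osteomodulin, was the gene that was lower (-0.64, adjusted p = 0.0324). In WT livers 5 rose with the diet, among them Omd (1.47) and Tnc, tenascin C (1.23). In HuRHep-/- livers 23 of 25 rose, led by Vcan (3.72), which also passed the count filter through the HFCF libraries alone, and Tnc (2.75).

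Collagen genes were called in 2 of 18 cases between genotypes on HFCF, Col8a1 (2.00, adjusted p = 0.0221) and Col15a1 (0.82, adjusted p = 0.0375), chains of network-forming and basement membrane zone collagens, of which Col8a1 reached the count filter in 2 of the 3 WT livers. The fibrillar genes Col1a1 and Col1a2 had values of 1.44 and 1.15 and did not pass (adjusted p = 0.210 and 0.227). With the diet 4 collagens rose in WT livers, led by Col15a1 (1.84) and Col12a1 (1.16), and 15 rose in HuRHep-/- livers, led by Col1a1 (2.82) and Col1a2 (2.27). On chow Col15a1 (2.02, adjusted p = 0.0472) and Col18a1 (0.53, adjusted p = 0.0131) were higher in HuRHep-/- livers, and the list had 0 calls without chow WT 3 or chow HuRHep-/- 1 or 2 and 1 without chow WT 1 or chow HuRHep-/- 3. Genes called higher between genotypes on HFCF, present in 7 of the 8 lists, fell to 0 in those 7 without HFCF WT 1 and without HFCF HuRHep-/- 1 or 3, and to 1, a crosslinking gene, without HFCF HuRHep-/- 2. Over all genes 46 calls were left without HFCF WT 1. The numbers that rose with the diet in WT livers also turned on single libraries. Collagens ran from 2 (without any 1 of chow WT 1 or 3, HFCF WT 1 or 3, or HFCF HuRHep-/- 1 or 2) to 14 (without HFCF WT 2), and proteoglycans and glycoproteins from 1 (without chow WT 1 or 3 or HFCF WT 1 or 3) to 15 (without HFCF WT 2). The TGF-beta list ran from 1 (without HFCF WT 3) to 9 (without HFCF WT 2) and the crosslinking list from 4 to 8 (without HFCF WT 2). Contractile genes ran from 1 to 5 and proteases and inhibitors from 3 to 7 (without HFCF WT 2). In HuRHep-/- livers the same counts were steadier, at 13 to 16 collagens and 20 to 24 proteoglycans and glycoproteins.

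**Figure D3:**
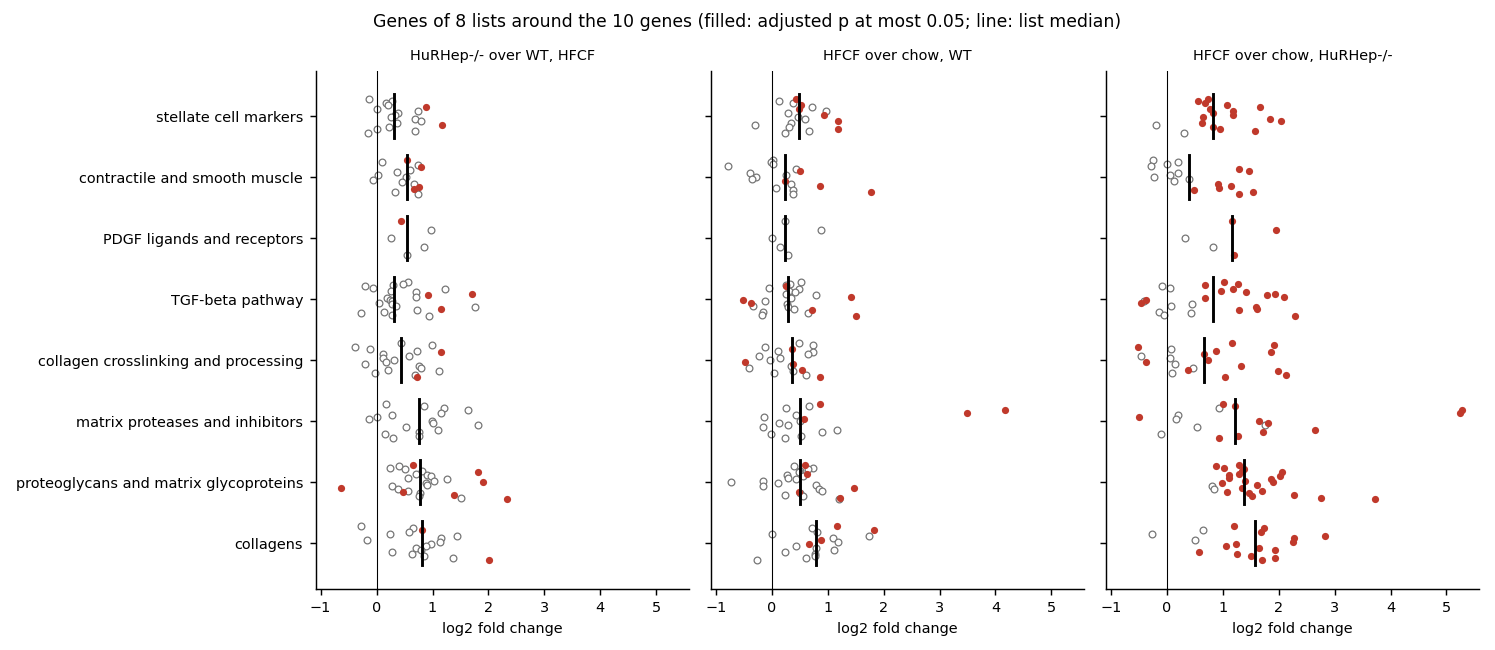
Log2 fold changes (x axis) of the tested genes of 8 lists (rows) in 3 comparisons, each point a gene, filled where the adjusted p was at most 0.05, with a line at the list median. The medians lie to the right of 0 in every row, from 0.30 to 0.81 between genotypes on HFCF and from 0.39 to 1.58 with the diet in HuRHep-/- livers.

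Averaged over both diets, where 19.2% of all genes tested passed, the calls between genotypes were 2 of 18 stellate markers, 4 of 17 contractile genes, 0 of 5 in the PDGF list, 4 of 24 in the TGF-beta list, 3 of 19 crosslinking genes, 2 of 17 proteases and inhibitors, 4 of 25 proteoglycans and glycoproteins and 5 of 18 collagens. Of these 8 shares, 6 lie below that of all genes. They turned on single libraries too: with 1 left out, genes called higher ran from 0 (without chow HuRHep-/- 1 or 2 or HFCF HuRHep-/- 1 or 3) to 5 in the TGF-beta list, from 0 to 4 for proteases and inhibitors, from 1 to 7 (without chow HuRHep-/- 3) for proteoglycans and glycoproteins and from 3 to 8 (without chow HuRHep-/- 3) for collagens. Stellate markers ran from 1 to 3, the PDGF list from 0 to 2, crosslinking genes from 2 to 5 and contractile genes from 3 to 5. Among those named by the rule, Tpm1 (0.63), Myh10 (0.48), Tgfb2 (1.12), Ltbp2 (0.88), Tgm2 (0.65), Crtap (0.35), Mmp11 (0.87), Mmp14 (0.41), Eln (1.05), Col15a1 (1.43) and Col8a1 (1.04) were higher in HuRHep-/- livers on the log2 scale. Angptl6, which is enriched in stellate cells, and Omd were lower (-0.27 and -0.56).

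Markers of other liver cells were summed in the same libraries. Their calls as higher stand beside 2.9% of all genes tested between genotypes on HFCF. With the diet that share was 11.3% in WT and 19.7% in HuRHep-/- livers. The 10 genes summed to 35.2 to 42.6 CPM in chow WT, 32.2 to 44.7 in chow HuRHep-/-, 37.9 to 72.3 in HFCF WT and 81.2 to 99.0 CPM in HFCF HuRHep-/- livers. The 18 stellate markers summed to 224 to 245, 190 to 263, 273 to 382 and 362 to 387 CPM in the same order, and the HFCF genotypes overlapped. Macrophage markers, 17 genes including Adgre1, Clec4f and Csf1r, summed to 267 to 347, 355 to 516, 404 to 719 and 713 to 948 CPM. Between genotypes on HFCF their median log2 fold change was 0.62, 16 of the 17 values were above 0 and none passed, though 5 did without HFCF WT 3 and 1 without HFCF HuRHep-/- 3, and with the diet 8 rose in WT livers, or 5 without chow WT 1 or HFCF WT 1 or 3, and 12 rose in HuRHep-/- livers. Averaged over both diets 8 of the 17 macrophage markers were higher in HuRHep-/- livers, where 8.96% of all genes tested passed as higher. With 1 library left out the macrophage count ran from 1 (without chow HuRHep-/- 2) to 12.

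Cholangiocyte markers, 10 genes of the bile duct lining, were at 31.1 to 34.5 CPM in HFCF WT and 50.3 to 72.0 CPM in HFCF HuRHep-/- livers, against 22.5 to 34.6 CPM over the chow livers. Krt7, Krt19 and Muc1 passed between genotypes on HFCF (log2 fold changes of 1.40, 1.32 and 1.62), and 0 did without HFCF WT 1 or any 1 HFCF HuRHep-/- liver. With the diet 7 of 8 tested rose in HuRHep-/- livers, or 4 without chow HuRHep-/- 3 or HFCF HuRHep-/- 1 or 3, and 0 rose in WT livers. Portal fibroblast markers were at 8.0 to 12.7 and 13.9 to 20.5 CPM on HFCF, with Cd34 passing between genotypes (1.12, adjusted p = 0.0315). That call was lost without HFCF WT 1 or 2 or any 1 HFCF HuRHep-/- liver. All 5 tested rose with the diet in HuRHep-/- livers, Gli1 having entered only through the HFCF libraries, or 2 without HFCF HuRHep-/- 3 and 3 without chow HuRHep-/- 3 or HFCF HuRHep-/- 1 or 2. Mesothelial markers, also expressed beside matrix genes, were at 6.48 to 17.5 and 15.04 to 25.5 CPM on HFCF, with 0 of 6 passing between genotypes. With the diet 4 of the 6, Msln (3.84), Wt1 (2.32), Upk3b (2.38) and Gpm6a (2.10), rose in HuRHep-/- livers, or 2 without chow HuRHep-/- 3 or any 1 HFCF HuRHep-/- liver, and 0 rose in WT livers. T and B lymphocyte markers were at 4.29 to 6.47 and 6.56 to 8.04 CPM, with 0 of 8 passing. With the diet Cd3e (1.46), Cd8a (1.87) and Nkg7 (1.47) rose in HuRHep-/- livers, Cd3e and Cd8a having entered through the HFCF libraries alone, and 0 rose in WT livers.

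Sinusoidal endothelial markers were at 210 to 250 CPM in HFCF WT and 244 to 251 CPM in HFCF HuRHep-/- livers, with 0 of 13 passing between genotypes. With the diet 4 rose in HuRHep-/- livers, or 2 without chow HuRHep-/- 1 or HFCF HuRHep-/- 2 or 3, by 0.37 (Stab1) to 0.70 (Cdh5) on the log2 scale, and Cdh5 alone (0.41) in WT livers, where the call was lost without any 1 of chow WT 1, 2 or 3, HFCF WT 1 or 3, or HFCF HuRHep-/- 2. Hepatocyte markers such as Alb and Ttr summed to 113374 to 137166 CPM in chow WT livers, 101605 to 110153 in chow HuRHep-/-, 83398 to 91210 in HFCF WT and 81430 to 84612 CPM in HFCF HuRHep-/- livers. No defining marker of the macrophage, mesothelial, portal fibroblast, stellate or hepatocyte list was at 0 throughout a group. The part of these cell types in the values of the 10 genes was not tested.

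**Figure D4:**
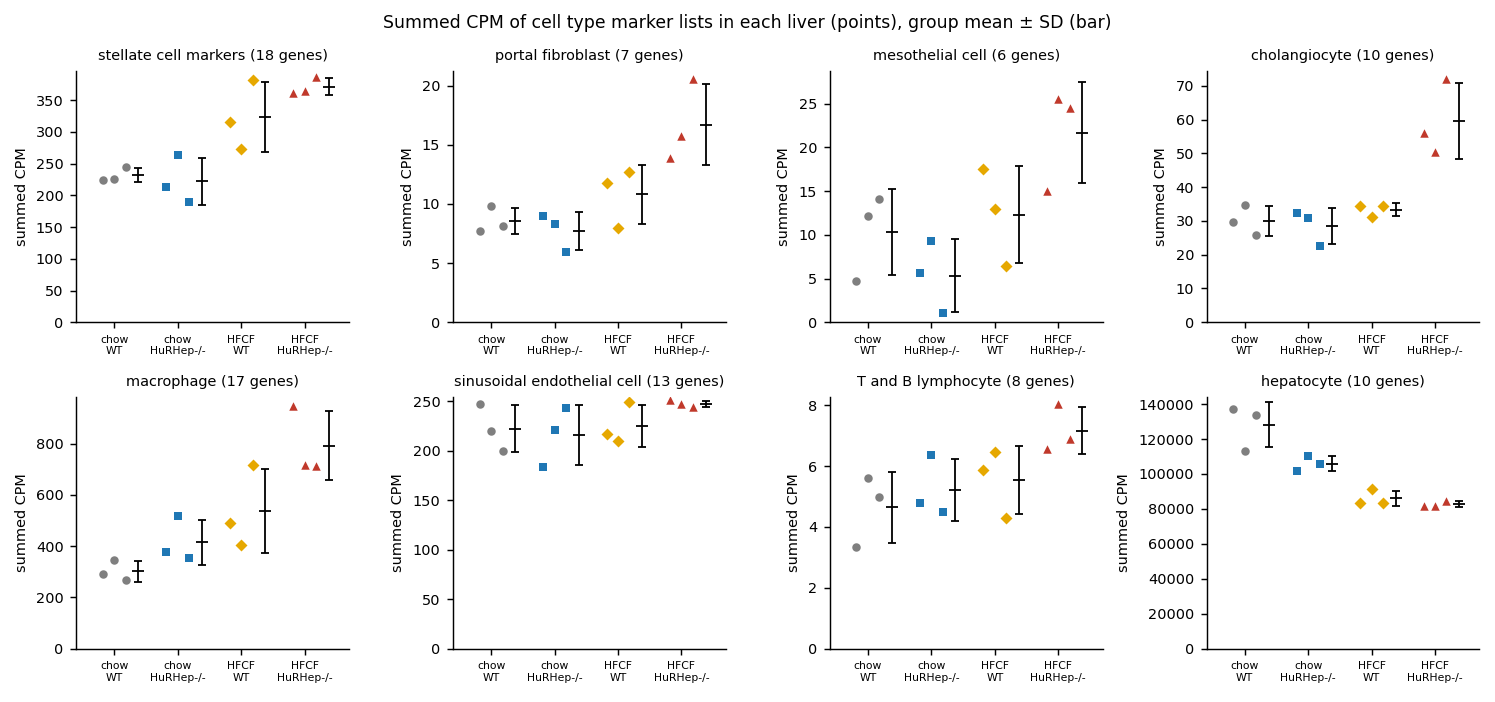
Summed CPM of 8 cell type marker lists in each of the 12 livers (points, by group on the x axis) with group mean and SD (bars), axes linear from 0. In the HFCF HuRHep-/- livers the cholangiocyte, portal fibroblast and lymphocyte sums lie above those of the HFCF WT livers, the macrophage, stellate and mesothelial sums overlap them, and the hepatocyte sums are highest in the chow WT livers.

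Across the 12 livers the 10 genes were compared in pairs, as a description without a test, since the points share libraries and groups. Pearson's r of log2 CPM over the 45 pairs ran from 0.30 (Acta2 with Lrat) to 0.96 (Tgfb1 with Loxl2), with a median of 0.80. After the group means were removed, r ran from -0.32 (Acta2 with Timp1) to 0.90 (Tgfb1 with Dpt), with a median of 0.48, and 37 of 45 were positive. Acta2 stood furthest from the others, with r between 0.30 and 0.61 over the 12 livers, and with group means removed its r was negative with 7 of the other 9 genes (from -0.32 to 0.22).

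Among 10177 other genes with enough counts, the closest to each by r over the 12 livers were Gpr182 for Acta2 (0.89), Mxra8 for Des (0.98), Rab3il1 for Pdgfrb (0.98), Fez2 for Lrat (0.95) and Soat1 for Timp1 (0.97). Lsp1 was closest to Tgfb1 (0.98), Ier5 to Lox (0.97), C3ar1 to Loxl2 (0.98), Slc25a4 to Lum (0.95) and Cd72 to Dpt (0.97). With group means removed these r values were between 0.78 and 0.93. Each partner was picked by its r in these same livers, so these values are no separate check of the match.

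In their 3′ untranslated regions, where HuR is known to bind, the 10 genes did not stand out by the 3 motifs counted. An ATTTA pentamer was present in 8 of the 10 (80.0%, not in Timp1 or Dpt) and in 66.1% of 17637 genes. TATTTAT was in 3 (30.0% against 27.9%), Lrat, Loxl2 and Lox, and a run of 7 T was in 4 (40.0% against 40.3%). The regions had a median length of 1279.5 bases against 1016, and their pentamers were 2.19 per kilobase against 1.83. Acta2 has 2 pentamers in 577 bases, and Timp1 has none in 101. A relation of these motifs to the genotype values was not tested.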

How the data were processed

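The authors sequenced total liver RNA with a stranded kit, mapped the reads against RefSeq GRCm38.p6 with CLC Genomics Workbench (methods stated for chow; the labels give the build for both diets), and deposited raw read counts per gene in 2 tables, one per diet. The counts are text with commas, so their unit was recorded as other, and a count model was not used. Counts were scaled here by TMM factors (trims 0.3 and 0.05), taken as log2 CPM with a pseudocount of 0.5, and tested with limma 3.58.1 in R 4.3.3 with a variance trend and Benjamini-Hochberg adjustment over all genes with the equivalent of 10 counts in at least 3 libraries and 15 in all. Genotype was fitted in each table of 6 libraries, and diet, interaction and the average over diets in 12. CPM and RPKM in the text use factors of all 12 libraries, with GENCODE M21 exon lengths for RPKM; fold changes are on the log2 (value + pseudocount) scale. The fits were tested on simulated data. The 10 genes and the lists were chosen with earlier results of these data known. Other genes named are, per list and comparison, the 2 called genes with the largest change, and genes added after their values were seen to complete a count or give a contrast; some that the rule named are not reported here. The AP-1 and relaxed CArG searches were added after seeing the data. Alternatives were other scalings, filters, a pseudocount of 2, voom weights, a replicate block, other libraries in the fit and leaving out each library.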

Additional observations from a re-analysis of the deposited data

How the results depend on the processing

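Replicate numbers were not used as a pairing in the main fits, and the labels state none. Same-numbered deviations correlated at -0.0299 to 0.107 on chow and 0.0861 to 0.190 on HFCF. On chow 2 of 6 samples, and on HFCF 6 of 6, were closest to their own number in the other genotype, as a hint from the data. With a replicate block 7 of the 10 genes passed between genotypes on HFCF and 1, Timp1, over both diets, and 340 of all genes passed on chow. The 7 were Acta2, Pdgfrb, Timp1, Tgfb1, Lox, Lum and Dpt. Scaling by library totals alone gave 1 gene, Lum, over both diets, a log2 fold change of 0.0907 for Lrat between genotypes on HFCF, and 11 genes in the interaction, which had 1 gene with no filter and 1 with voom weights. Fits with all 12 libraries called 961 genes between genotypes on chow and 1615 on HFCF, and the fit of the 6 libraries compared called 2060 genes and 1 of the 10 with the diet in WT livers. The causes were not tested.

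Leaving out 1 library at a time gave 0 (without HFCF WT 1 or any 1 HuRHep-/- liver) to 6 (without HFCF WT 3) of the 10 genes between genotypes on HFCF, 0 (without chow WT 1 or HFCF WT 3) to 6 (without HFCF WT 2) with the diet in WT livers, 8 (without chow HuRHep-/- 1) to 10 in HuRHep-/- livers, and 0 to 3 (without chow HuRHep-/- 3 or HFCF WT 3) over both diets. Over all genes the counts were 9 to 535 on chow, 28 to 1276 on HFCF, 1990 to 3965 with the diet in WT livers, 0 to 41 in the interaction and 1857 to 2951 over both diets. Signs changed for calls that had not passed: between genotypes on chow, log2 fold changes ran from -0.43 to 0.24 for Acta2, -0.13 to 0.40 for Pdgfrb, -0.12 to 0.30 for Tgfb1, -0.16 to 0.31 for Loxl2 and -0.0664 to 0.39 for Dpt. They ran from -0.23 to 0.0665 for Lrat on HFCF, from -0.48 to 0.0413 for Acta2, -0.11 to 0.78 for Lum and -0.0446 to 0.63 for Dpt with the diet in WT livers, and from -0.53 to 1.40 for Timp1 in the interaction. Of 490 gene values under the other settings, 478 kept their sign and their side of the threshold, and of 588 with a library left out, 532 did. Counts of 0 to 10 limit Lox and Timp1 in chow-fed livers.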
